A study of Mus musculus with 8 samples.

Results

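Dopamine receptors are the 5 receptors through which dopamine acts, encoded in the mouse by Drd1, Drd2, Drd3, Drd4 and Drd5. All 5 were measured here in nucleus accumbens RNA, with 8 array probes between them, out of 31334 genes tested on 44290 array positions. Of the 31334, 19087 carried a symbol, and each array row without a single symbol was counted as a gene of its own. The members were taken by gene symbol from the platform's probe annotation, and the rule sets no threshold on a measured value. The tissue came from male mice trained in a brief conditioned place preference task, which pairs a drug injection with one compartment of a test box. Treated mice were given cocaine (15 mg per kg) and control mice saline, both on days 2, 3 and 4 of the task. The sources used here give no genotype, strain or age.

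Each array carried RNA of 1 cocaine mouse and 1 saline mouse in competition, labelled with the dyes Cy5 and Cy3. Cocaine RNA was in Cy5 in 2 hybridisations (replicates 1 and 2 of cocaine in Cy5) and saline RNA was in Cy5 in the other 2 (replicates 1 and 2 of saline in Cy5). Every hybridisation was read on an Axon and on an Agilent scanner, and the 2 readings of the same labelled RNA were averaged, so n was 4 hybridisations. The design text speaks of 5 measurements, and 4 were analysed here.

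The 5 receptors are G protein coupled receptors that fall into 2 classes. The D1 class, Drd1 and Drd5, couples to stimulatory G proteins and raises cyclic AMP, while the D2 class, Drd2, Drd3 and Drd4, couples to inhibitory G proteins and lowers it. In the striatum, of which the nucleus accumbens is the ventral part, Drd1 marks the medium spiny neurons of the direct pathway and Drd2 those of the indirect pathway. Drd2 also serves as an autoreceptor on dopamine neurons, Drd3 is concentrated in the ventral striatum and the islands of Calleja, and Drd4 and Drd5 are better known from cortex, retina and hippocampus. Cocaine blocks the dopamine transporter, which raises extracellular dopamine at all of these receptors.

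The values are log2 ratios of cocaine over saline, centred on the median of each scan. The labels do not state this direction, which is therefore an assumption here. The difference between the scanners, Axon minus Agilent, correlated across rows at 0.51 and 0.52 for hybridisations that shared an orientation and at -0.54 to -0.49 for those that did not, as it would if all columns had been turned to 1 direction. These values would be the same with every column as saline over cocaine, so they cannot tell which direction it is. With saline over cocaine, every cocaine and dye coefficient below would change its sign. Gene names rest on a grid layout inferred from the data, under which probes of the same transcript correlated at r = 0.52 across 4732 pairs, against -0.01 when rows are read in order. These correlations are across array positions, which are not independent replicates. RNA was pooled over all cells of the tissue piece, so fewer cells of a type and less RNA per cell cannot be told apart in any ratio below.

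No dopamine receptor gene passed the test for a difference between cocaine and saline mice. Across all genes 8 of 31334 passed a limma adjusted p of 0.05, or 0.0255%, and 0 of 5 receptors is near that background. Among the 19087 genes with a symbol, 5 passed lower and 0 higher. The fitted ratios were 0.24 ± 0.18 for Drd1, 0.21 ± 0.19 for Drd2, 0.05 ± 0.17 for Drd3, -0.09 ± 0.17 for Drd4 and -0.02 ± 0.18 for Drd5 (log2, standard error, n = 4). Their limma adjusted p-values lay between 0.875 for Drd1 and 0.990 for Drd5, and the unadjusted limma p was lowest for Drd1 at 0.188, against 6.04% of all genes with an unadjusted p under 0.05.

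The start regions of the receptor genes were read from RefSeq on build GRCm38.p6, in which all 5 genes matched by symbol. They are shown for 3 receptors, the main striatal receptors Drd1 and Drd2 and the GC-poor Drd3, since they show how differently genes of this family begin. Each line gives the bases from 250 to 51 before the start site, 5′ to 3′ on the gene's strand, with matches to the GC box GGGCGG or its reverse complement CCGCCC in capitals. Drd1 lies at chr13:54055709-54055908 on the minus strand, Drd2 at chr9:49340153-49340352 on the plus strand and Drd3 at chr16:43761971-43762170 on the plus strand.
Drd1: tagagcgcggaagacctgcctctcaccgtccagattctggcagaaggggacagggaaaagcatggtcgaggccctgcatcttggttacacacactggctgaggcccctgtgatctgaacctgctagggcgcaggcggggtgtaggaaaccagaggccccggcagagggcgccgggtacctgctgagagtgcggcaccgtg
Drd2: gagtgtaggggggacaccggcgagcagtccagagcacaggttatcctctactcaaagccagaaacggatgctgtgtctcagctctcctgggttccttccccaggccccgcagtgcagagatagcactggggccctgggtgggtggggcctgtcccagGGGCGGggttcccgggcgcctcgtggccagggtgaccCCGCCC
Drd3: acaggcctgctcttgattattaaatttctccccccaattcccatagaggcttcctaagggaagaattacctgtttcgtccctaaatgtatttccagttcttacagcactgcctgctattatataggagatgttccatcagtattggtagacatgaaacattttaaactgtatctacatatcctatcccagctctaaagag
The windows of Drd1 and Drd2 were 63.5% and 67.5% G or C, against 39.5% for Drd3 and a median of 51.5% over 32841 RefSeq windows of the same length. Drd5 reached 74.5%, with 32 CG pairs against a median of 4, and Drd4 54%. A GC box was found on either strand 2 times in Drd2, 3 times in Drd4, of which 2 overlap by 1 base, 2 times in Drd5 and not in Drd3 or in the printed Drd1 window, and 24.6% of all windows hold at least 1. A second Drd1 start site in RefSeq, also with 63.5% G or C, holds 1. The cyclic AMP response element TGACGTCA, its half-site TGACG, the AP-1 motif TGANTCA and TATAAA had no match on either strand in any of these windows, where 0.828%, 12.7%, 5.58% and 9.14% of all windows hold them. The windows end 51 bases before the start site. Bases nearer to it were not searched, so a TATAAA there would have been missed.

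Drd1, the main D1 class receptor of the striatum, was read by 1 probe. Its centred log2 ratio was 1.62 and 1.70 in replicates 1 and 2 of cocaine in Cy5, and -0.90 and -1.46 in replicates 1 and 2 of saline in Cy5. The ratio was high whenever cocaine RNA carried Cy5 and low whenever saline RNA carried it, and the orientations did not overlap. This pattern followed the dye, and the fit gave Drd1 a dye coefficient of 1.42 ± 0.18 (log2 Cy5 over Cy3, limma adjusted p = 7.14e-06). With the dye term fitted, cocaine over saline was 1.18-fold for Drd1, with a 95% interval of 0.915 to 1.53. On the Agilent scanner the Drd1 ratios were 2.19 and 2.26 in cocaine in Cy5 and -1.36 and -2.12 in saline in Cy5. The Axon readings of the same arrays were smaller in size, at 1.05 and 1.14 in cocaine in Cy5 and -0.43 and -0.80 in saline in Cy5.

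Drd5, the second D1 class receptor, had 2 probes of the same transcript accession that did not behave alike. The first stood at 0.18 and 0.58 in cocaine in Cy5, and at -0.82 and -0.04 in saline in Cy5. The second stood at -0.77 and -1.27 in cocaine in Cy5, and at 0.67 and 1.28 in saline in Cy5. The Drd5 probes therefore moved with the dye in opposite directions, with dye coefficients of 0.41 ± 0.20 and -0.998 ± 0.203 when each probe was fitted on its own. In that fit limma took 1 spread for every probe on the array, so each single-probe standard error here and below is 0.20 and none comes from the probe's own 4 hybridisations. The cocaine ratio of both Drd5 probes was near 0, at -0.03 ± 0.20 and -0.02 ± 0.20. For the mean of the probes cocaine over saline was 0.983-fold, with a 95% interval of 0.757 to 1.28.

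Drd2, the main D2 class receptor, was read by 2 probes of the same transcript accession, both shifted towards Cy5. The first Drd2 probe stood at 0.61 and 1.07 in cocaine in Cy5, and at -0.07 and -1.001 in saline in Cy5. The second stood at 1.58 and 1.79 in cocaine in Cy5, and at -0.63 and -1.66 in saline in Cy5. In these means of both scanners the orientations did not overlap for either probe, and replicate 2 lay farther from 0 than replicate 1 in each orientation. On the Axon scanner alone the first Drd2 probe overlapped, at -0.05 and 0.48 in cocaine in Cy5 and 0.31 and -0.51 in saline in Cy5. Dye coefficients were 0.69 ± 0.20 and 1.42 ± 0.20 for the probes fitted singly, and the cocaine ratios were 0.15 ± 0.20 and 0.27 ± 0.20. Averaged over its probes, Drd2 stood at 1.10 and 1.43 in cocaine in Cy5 and at -0.35 and -1.33 in saline in Cy5, and cocaine over saline was 1.16-fold (95% interval 0.877 to 1.53). Without saline in Cy5 replicate 1 the Drd2 log2 ratio was -0.03, so that hybridisation alone decided the side of 0 on which it lay.

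Drd3, the D2 class receptor of the limbic striatum, gave small ratios in every hybridisation. Its single probe stood at 0.01 and -0.42 in cocaine in Cy5, and at 0.35 and 0.25 in saline in Cy5. The Drd3 orientations did not overlap, with the saline in Cy5 values above those of cocaine in Cy5. The dye coefficient of -0.25 ± 0.17 did not pass (limma adjusted p = 0.195). Cocaine over saline was 1.03-fold for Drd3, with a 95% interval of 0.803 to 1.33, and the log2 ratio was -0.08 in the Agilent scans alone and 0.18 in the Axon scans alone.

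Drd4, the remaining D2 class receptor, had 2 probes of different transcript accessions. The first stood at -0.95 and -1.09 in cocaine in Cy5, and at 0.81 and 0.47 in saline in Cy5, so that it moved towards Cy3. The second stood at -0.40 and 0.05 in cocaine in Cy5, and at 0.37 and 0.04 in saline in Cy5, where the orientations overlapped. In the second Drd4 probe only 1 of 4 hybridisations had the same sign on both scanners, against 4 of 4 for the Drd1 probe. The cocaine ratios of the probes were -0.19 ± 0.20 and 0.01 ± 0.20, and their mean gave 0.941-fold, with a 95% interval of 0.732 to 1.21.

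**Figure D1:**
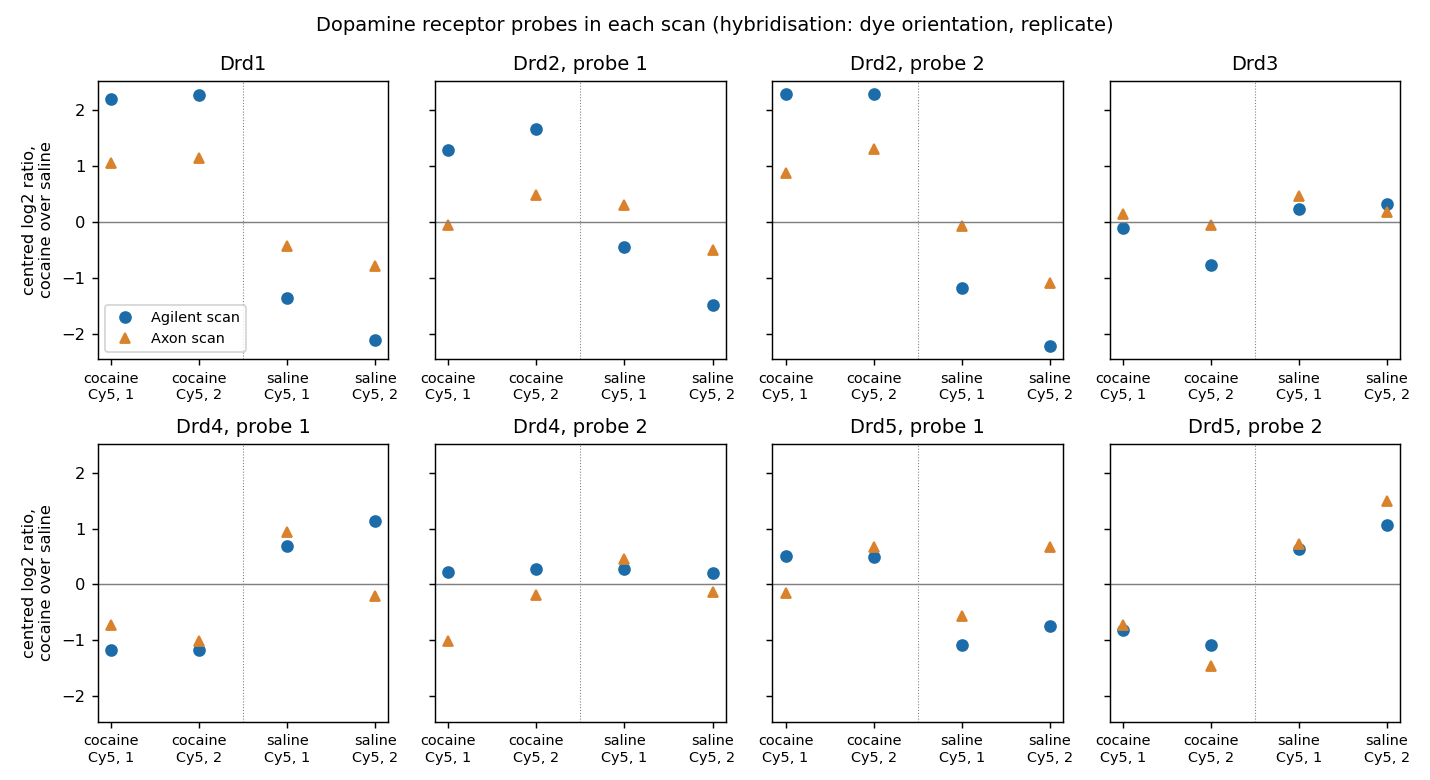
Centred log2 ratio of cocaine over saline (vertical axis) for each of the 8 dopamine receptor probes in the 4 hybridisations (horizontal axis), with circles for Agilent and triangles for Axon scans. The Drd1 probe and the second Drd2 probe are higher with cocaine in Cy5 than with saline in Cy5 on both scanners, the first Drd2 probe is so on the Agilent scanner only, the Drd5 probes run in opposite directions on the Agilent scanner, and the second Drd4 probe lies between 0.20 and 0.28 on the Agilent scanner throughout.

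Averaged over their probes, all 5 receptors had orientations that did not overlap, which was true of 91.5% of all genes tested. A receptor with the same sign in 4 of 4 hybridisations would be one whose ratio held through the dye swap. There was none among the 5, against 1.84% of all genes. The dye coefficient passed a limma adjusted p of 0.05 in 3 of 5 receptors, Drd1, Drd2 and Drd4, against 77.9% of all genes. Fitted singly, the first Drd4 probe passed (limma adjusted p = 9.65e-05) and the second did not (0.386). The second Drd5 probe passed in that fit (2.86e-06) and the first did not (0.0574).

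Since these ratios followed the dye, each scan was also fitted by loess along a dye profile. The profile is a mean Cy5 over Cy3 ratio of the Agilent scans alone, in which both orientations weigh the same. Each Agilent scan thus entered the profile it was fitted along, while the Axon scans did not. In the values after this loess Drd1 stood at 0.26 and -0.11 in cocaine in Cy5, and at 0.09 and 0.004 in saline in Cy5. Drd2 stood at 0.04 and -0.03 in cocaine in Cy5, and at 0.41 and -0.17 in saline in Cy5. The orientations overlapped for both genes, and neither had the same sign throughout. The loess takes out what goes with the profile, so this overlap is no separate observation. The share of all genes that overlapped after the loess was not counted. The Drd1 ratio became 0.06 ± 0.11 and the Drd2 ratio 0.06 ± 0.13 on the log2 scale. Drd3 stood at 0.07 ± 0.11, Drd4 at -0.06 ± 0.13 and Drd5 at -0.03 ± 0.14, with limma adjusted p-values of 0.866 to 0.971 over the 5 receptors. Of all genes 0 passed in these values (0%), with 2271 genes, or 7.25%, at an unadjusted limma p under 0.05, and the sign was shared by 4 of 4 hybridisations in none of the 5 receptors, against 19.1% of all genes.

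**Figure D2:**
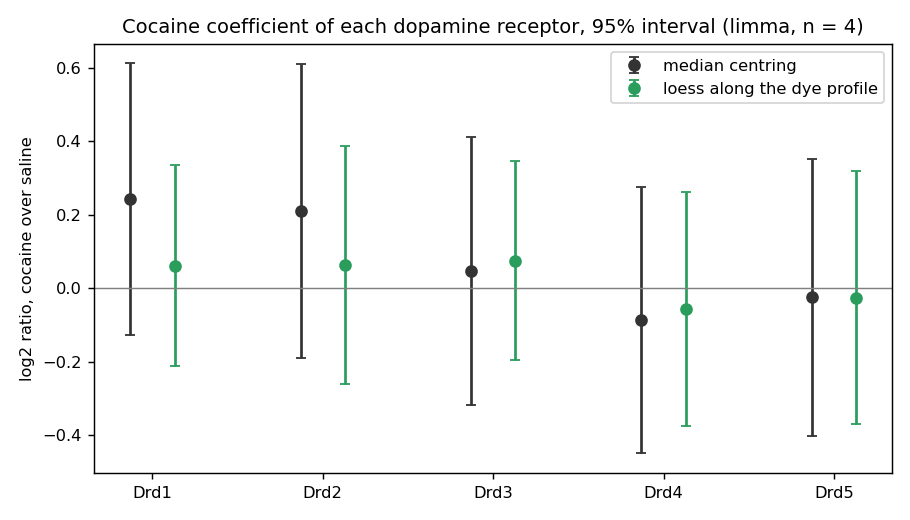
Cocaine over saline log2 ratio of each receptor (vertical axis) with its 95% interval from limma over 4 hybridisations, after median centring (dark) and after loess along the dye profile (green). Every interval spans 0, and the Drd1 and Drd2 ratios are 0.24 and 0.21 after centring and 0.06 each after the loess.

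As means over their probes, the receptors fell into separate ranges of the dye coefficient. Drd1, at 1.42, was above 96.4% of all genes and Drd2, at 1.05, above 84.0%. Drd3, Drd5 and Drd4, at -0.25, -0.30 and -0.51, lay at percentiles between 39.0 and 48.3 of all genes. The 9 measured markers of medium spiny neurons had a median dye coefficient of 1.42 and all were above 0. The 905 olfactory receptor genes, which most brain tissue transcribes little, had a median of -0.80 with a 5th to 95th percentile range of -1.24 to -0.05. Drd1 was above all of these olfactory receptors and Drd2 above 99.8% of them, while Drd3, Drd5 and Drd4 were above 91.5%, 90.7% and 81.1% and lay inside that range. For Drd4 and Drd5 this holds for the mean of probes that differed. Fitted singly, the dye coefficients were -0.83 and -0.19 for Drd4, and 0.41 and -0.998 for Drd5. The first Drd5 probe thus lay above the olfactory receptor range. The dye coefficient is not an expression level, and no intensities were used here, so whether Drd3, Drd4 and Drd5 were above background on these arrays was not tested.

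The centred cocaine ratio rose along the same axis. In the 10% of genes with the highest dye coefficient, which hold Drd1, its median was 0.18 (quartiles 0.08 and 0.28), and Drd1 at 0.24 was above 66.0% of those 3134 genes. In the next 10%, which hold Drd2, the median was 0.14 (quartiles 0.05 and 0.24), and Drd2 at 0.21 was above 68.3% of 3133 genes. In the bins of the same size that hold Drd3, Drd5 and Drd4 the medians were -0.04, -0.04 and -0.06. All 5 receptors lay between the quartiles of the genes in their own bin. How much of the Drd1 and Drd2 ratios goes with the dye beyond this was not tested.

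**Figure D3:**
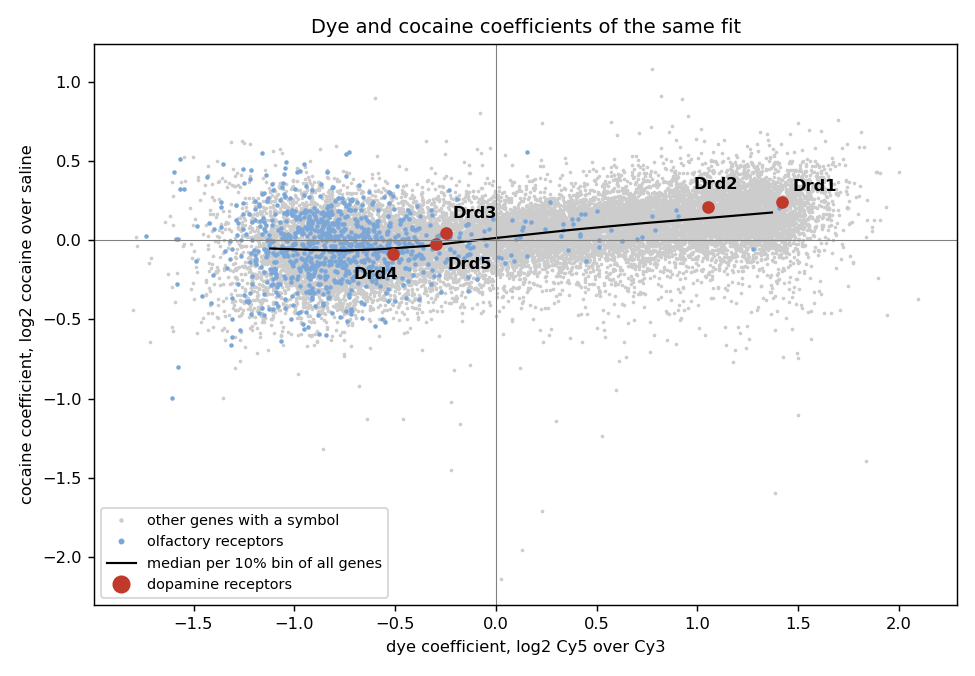
Dye coefficient (horizontal axis, log2 Cy5 over Cy3) against cocaine coefficient (vertical axis, log2 cocaine over saline) for every gene with a symbol, with olfactory receptors in blue, the 5 dopamine receptors in red and the median in each bin of 10% of all genes as a black line. Drd1 and Drd2 sit at 1.42 and 1.05 on the horizontal axis, a little above the line, and Drd3, Drd4 and Drd5 sit among the upper olfactory receptors.

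Differences between receptors within the same array bear on whether the classes separated. Drd1 minus Drd2 was 0.52 and 0.27 in cocaine in Cy5, and -0.55 and -0.12 in saline in Cy5, with a mean of 0.03. The sign of this difference turned with the dye. Drd1 minus Drd5, the difference within the D1 class, averaged 0.27, and Drd2 minus Drd3 and Drd2 minus Drd4, within the D2 class, averaged 0.16 and 0.30, each again with opposite signs in the 2 orientations. For the other pairs between the classes, Drd1 minus Drd3 averaged 0.19 and Drd1 minus Drd4 averaged 0.33. Drd2, Drd3 and Drd4, each minus Drd5, averaged 0.23, 0.07 and -0.06. These differences were not tested, and an exact sign-flip test over 4 hybridisations cannot give a two-sided p under 0.125.

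Genes that share neurons with the receptors were placed beside them. The direct pathway companions of Drd1 had 7 of 7 measured members above 0, with a median of 0.15, beside 0.03 over all genes tested, of which 56.6% were above 0. Over genes with a symbol the median was 0.04, with 11441 of 19087 above 0. Pdyn, which encodes the opioid precursor prodynorphin, stood at 0.50 ± 0.17 and Isl1, a LIM homeodomain factor of direct pathway neurons, at 0.44 ± 0.17. Sfxn1, a mitochondrial serine transporter, stood at 0.19 ± 0.17 and the transporter gene Slc35d3 at 0.15 ± 0.17. Tac1, the substance P precursor, stood at 0.09 ± 0.17 and the muscarinic receptor Chrm4 at 0.05 ± 0.17. None of the 7 passed the test. The indirect pathway companions of Drd2 had 4 of 5 measured members above 0 and a median of 0.33. Gpr6, a receptor of indirect pathway neurons, stood at 0.60 ± 0.20, Penk, which encodes proenkephalin, at 0.36 ± 0.18 and the factor Sp9 at 0.33 ± 0.18. The kainate receptor subunit Grik3 stood at 0.15 ± 0.18, and 0 of 5 passed. After the loess along the dye profile the medians were 0.09 for the companions of Drd1 and 0.20 for those of Drd2. The median dye coefficient was 0.50 for the companions of Drd1 and 1.25 for those of Drd2. How much of their centred medians goes with the dye was not tested.

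Downstream of the D1 class, 13 of 16 genes of stimulatory transduction and cyclic AMP signalling were above 0, with a median of 0.18, and 0 passed. Ppp1r1b, which encodes the phosphatase inhibitor DARPP-32, stood at 0.69 ± 0.19, and Adcy5, the main striatal adenylyl cyclase, at 0.61 ± 0.20. The G protein subunit Gng7 stood at 0.41 ± 0.18 and the phosphodiesterase Pde10a at 0.39 ± 0.18. Gnal, the stimulatory alpha subunit to which Drd1 couples in striatum, stood at 0.19 ± 0.17. In dye-profile values 10 of 16 were above 0 and the median was 0.06. The list had a median dye coefficient of 1.17. In the bins of 10% of genes with median dye coefficients of 1.09 and 1.37, the median cocaine ratio was 0.14 and 0.18. How much of the list median goes with the dye was not tested.

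Downstream of the D2 class and among the proteins that regulate the receptors, 16 of 22 genes were above 0, with a median of 0.07, and 0 passed. Kcnj3, a channel subunit opened by inhibitory G proteins, stood at -0.41 ± 0.17. Caly, which encodes the vesicle protein calcyon, stood at 0.27 ± 0.18, Rgs9, which speeds the shut-off of inhibitory G proteins, at 0.27 ± 0.18, and Gnai1, an inhibitory alpha subunit, at 0.24 ± 0.18. The arrestins Arrb1 and Arrb2 stood at 0.05 ± 0.17 and 0.04 ± 0.17. In dye-profile values the median of this list was -0.06, with 7 of 22 above 0, so the sign of its median turned with the normalization. This list had a median dye coefficient of 1.04. In the bin of genes with a median dye coefficient of 1.09, the median cocaine ratio was 0.14 centred and 0.002 after the loess. The list median was below that of the bin in both sets of values. The part of the list median that goes with the dye was not tested.

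Genes that make, store, take up and break down dopamine showed no common direction, with 4 of 9 measured members above 0, a median of -0.02 and 0 past the test. Th, tyrosine hydroxylase, stood at 0.40 ± 0.20, Pts and Qdpr, of tetrahydrobiopterin synthesis and recycling, at 0.21 ± 0.18 and -0.15 ± 0.20, and the monoamine oxidase Maoa at 0.15 ± 0.18. Slc6a3, the dopamine transporter that cocaine blocks, stood at -0.04 ± 0.17 and Slc18a2, the vesicular transporter, at -0.02 ± 0.17. Both transporters are made mainly in midbrain cell bodies, and their dye coefficients were -0.34 and -0.12. Adrenergic receptors, close relatives among the amine receptors, had 2 of 9 entries measured here, Adra2c at 0.22 ± 0.18 and Adra1b at -0.16 ± 0.17, and neither passed.

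**Figure D4:**
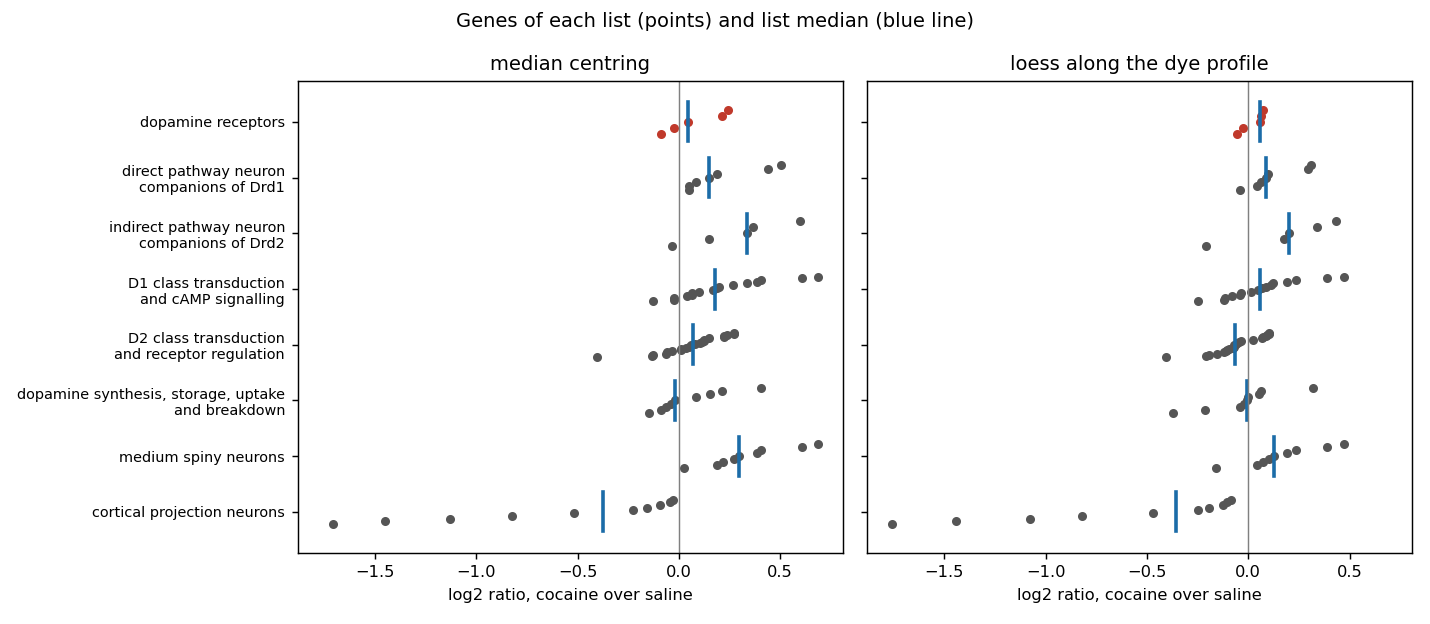
Cocaine over saline log2 ratio (horizontal axis) of each gene in 8 lists (rows) after median centring (left) and after loess along the dye profile (right), with the list median as a blue line. The receptors lie between -0.09 and 0.24 on the left and between -0.06 and 0.07 on the right, while cortical projection neuron markers reach -1.71 on the left.

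Cell type markers were read in the same arrays. All 10 measured markers of cortical projection neurons were below 0, with a median of -0.37, and 3 passed lower, where 0.0223% of all genes passed lower, namely Tbr1 at -1.45 ± 0.18 (limma adjusted p = 0.00602), Nrn1 at -1.71 ± 0.24 (0.0143) and Neurod6 at -1.13 ± 0.19 (0.0375). All 9 measured markers of medium spiny neurons were above 0, with a median of 0.30, and 0 passed. Of all genes tested 56.6% were above 0. The medium spiny neuron list had a median dye coefficient of 1.42. In the 10% of genes with the highest dye coefficient the median cocaine ratio was 0.18. How much of the medium spiny neuron median goes with the dye was not tested. Ppp1r1b, Adcy5, Gng7 and Pde10a are in both this list and that of D1 class transduction, and Rgs9 is in that of D2 class transduction. These lists are therefore not separate observations. All lists were chosen with earlier results of these data known, so their counts are a description only. The cortical median was -0.89 and -0.59 in cocaine in Cy5, and -0.60 and -0.36 in saline in Cy5, so it did not turn with the dye. The medium spiny neuron median was 1.72 and 1.84 in cocaine in Cy5, and -0.64 and -1.49 in saline in Cy5, as for Drd1. In dye-profile values the medians were -0.36 for the cortical list and 0.13 for the medium spiny neuron list. There the 3 cortical calls were lost, with Tbr1 at -1.44 ± 0.13 (limma adjusted p = 0.591), Nrn1 at -1.76 ± 0.31 (0.670) and Neurod6 at -1.08 ± 0.20 (0.670), ratios close to the centred ones. They were also lost in Axon scans alone and with scans scaled to the same median absolute deviation, where 0 genes passed. The part of a difference in tissue makeup in the Drd1 and Drd2 ratios was not tested.

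Likeness to each receptor was measured as the root mean square difference of centred log2 ratios over the 4 hybridisations, among 18181 named genes other than olfactory receptors. The nearest 3 to Drd1 were H2ac20, Arid1b and Tmub1, at 0.03, 0.04 and 0.04. For Drd2 they were Aldh2, Pcdh17 and Slc1a4, at 0.06, 0.07 and 0.08. For Drd3 they were Apoh, Fam83c and 1700001P01Rik, at 0.02, 0.04 and 0.05, for Drd4 Tefm, Mterf3 and Kif7, at 0.02, 0.06 and 0.06, and for Drd5 Arhgap24, Hdac9 and Lyplal1, at 0.04, 0.07 and 0.07. No receptor was among the 3 nearest genes of another. These 4 hybridisations share the dye pattern described above, and likeness over them is given as a description only.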

How the data were processed

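The authors deposited log2 ratios of the 2 channels, 44290 rows for each of 8 scans of 4 hybridisations. Per the labels, aliquots of 75 ng of total RNA were amplified and labelled. The sources used here do not give the image analysis, background correction or normalization, and the log base was inferred from steps in the values. Stop values of 16.61 in size (4 to 37 per scan) were set to missing. Scan medians of -0.885 to 0.823 were centred to 0. Of the rows, 32042 had 1 symbol, 47 several and 12201 none. Rows with several symbols or none were each kept as a gene of their own. Probes of a symbol were averaged, then scans, and limma 3.58.1 (lmFit and eBayes, R 4.3.3) fitted coefficients for cocaine and for dye, leaving 2 residual degrees of freedom, with Benjamini-Hochberg adjustment over 31334 genes. Tests were two-sided, ± is a limma standard error, and the fit was tested on simulated data. The loess along the dye profile of the Agilent scans (span 0.3, 4 iterations) was an alternative, as were single scanners, single probes, other scalings and leaving out a hybridisation. Members, lists and alternatives were chosen with earlier results of these data known. Named genes are the receptors, the 4 members of smallest p per pathway list, 2 per cell type list and the 3 most like each receptor. Neurod6, Gnal, Tac1, Chrm4, Arrb1, Arrb2, Slc6a3, Slc18a2, Slc5a7, Slc18a3 and Chat were added after their values were seen. The labels give each array 1 mouse per treatment, and the number of arrays limits the precision. Motifs were searched on both strands.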

Additional observations from a re-analysis of the deposited data

Results flagged for a closer look

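Drd5 had 1 hybridisation apart from the other 3 in dye-profile values. Saline in Cy5 replicate 2 stood at 0.46, against -0.18 and -0.17 in cocaine in Cy5 and -0.21 in saline in Cy5 replicate 1, a gap over range of 0.952. Neither Drd5 probe alone stood apart (0.433 and 0.448). This was 1 of 11 sets examined, and chance alone gives about 1 in 20.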

How the results depend on the processing

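Over 68 receptor ratios recomputed under alternatives, 0 passed the adjusted threshold of 0.05, 60 kept their sign and 8 turned it. Drd1 kept its sign in 13 of 13, between 0.06 and 0.38. Some of these agreements were fixed in advance. Fitting no dye coefficient, eBayes robust and keeping only genes with no missing value left every receptor ratio unchanged. Reading each probe on its own did the same for Drd1 and Drd3, which have 1 probe each. Such settings could change the standard error and p-value but could not turn a sign. The turned values outside the leave-outs were Drd3 at -0.0835 and Drd4 at 0.0573 in Agilent scans alone, Drd5 at 0.0823 in Axon scans alone and 0.0117 with scans scaled to the same median absolute deviation, and Drd4 at 0.0134 by its second probe. Leaving out each hybridisation gave log2 ratios of 0.10 to 0.38 for Drd1, -0.0344 to 0.455 for Drd2, -0.0601 to 0.155 for Drd3, -0.17 to -0.003 for Drd4 and -0.20 to 0.15 for Drd5. Among all genes, the count that differed between cocaine and saline was 8, and became 20 in Agilent scans only, 0 in Axon scans only, 0 with no dye coefficient, 97 without centring, 0 when scaled to the same median absolute deviation, 0 with loess along the dye profile, 16 with eBayes robust and 120 with each probe on its own. It was 66 to 288 without 1 hybridisation, where the fit has 1 residual degree of freedom. In the leave-outs, without centring and with each probe on its own, limma took the spread as equal for every gene or probe. At these counts of 0, limma's unadjusted p was under 0.05 for 1585, 24, 1755 and 2271 genes. Dye coefficients lost the threshold in Axon scans for Drd2 (0.50) and Drd4 (-0.50), and Drd3 passed in Agilent scans (-0.36). The cause was not tested. With loess along the dye profile the oligodendrocyte median moved to -0.23, and the list median turned to -0.0637 for D2 class transduction and receptor regulation, -0.0728 for adrenergic receptors, -0.0118 for astrocytes and -0.0757 for microglia.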

Other observations

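Lists of other cells, named here for completeness, held 0 genes past limma's adjusted p of 0.05. Striatal interneuron markers had a median log2 ratio of -0.09 with 4 of 10 above 0. The markers of smallest p were both below 0, Cck at -1.13 ± 0.21 (limma adjusted p = 0.0617) and Pvalb at -0.74 ± 0.26. The 4 above 0 were Th at 0.40, Slc5a7 at 0.25, Slc18a3 at 0.19 and Chat at 0.01. Whether the Cck signal came from interneurons or from other cells of the tissue was not tested. Markers of septal, pallidal and hypothalamic neurons had a median of 0.13 with 7 of 10 above 0, Dlk1 at 0.67 ± 0.18 and Avp at -0.44 ± 0.18 included. Oligodendrocyte markers had a median of -0.02 with 4 of 9 above 0 (smallest p in Ermn -0.28 ± 0.17, Mog -0.24 ± 0.17), and in dye-profile values a median of -0.23 with 2 of 9 above 0. Astrocyte markers had a median of 0.09 with 6 of 8 above 0 (smallest p in Aldh1l1 0.33 ± 0.18, Aldoc 0.23 ± 0.18), and in dye-profile values 4 of 8 were above 0. Microglia markers had a median of 0.03 with 5 of 7 above 0 (Trem2 0.23 ± 0.17, Tmem119 0.10 ± 0.17) and endothelial markers one of -0.07 with 3 of 8 above 0 (Kdr -0.30 ± 0.17, Esam 0.18 ± 0.17).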
